A study of Homo sapiens and Mus musculus with 12 samples.

Results

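The genes described here are 3 receptors of the signalling lymphocytic activation molecule (SLAM) family, Cd244, Slamf6 and Slamf7, together with Cd48, the ligand of CD244, and Sh2d1a, which encodes the adaptor SAP. Their rows were found by symbol, 5 of them among the 22021 genes of the mouse count table and their 5 human counterparts among the 18304 genes of the human count table. All 10 rows had enough counts to be tested. Mouse NK cells came from the spleens of C57BL/6J mice aged 8 to 12 weeks. The WT group carried Ehmt2 flox/flox, in which loxP sites flank part of the gene, and the KO group carried Ehmt2 flox/flox together with Ncr1-iCre, a Cre recombinase made from the gene of NKp46, so that the deletion is limited to cells that have expressed Ncr1. Each group had 3 libraries. The titles of the KO samples name EHMT2, while their genotype label reads Ezh2-KO, and the samples were grouped by the titles. Ehmt2, the targeted gene, was counted at 282 ± 5.94 CPM (TMM-normalized counts scaled to library size; SD, n = 3) in WT and 150 ± 18.1 CPM (SD, n = 3) in KO NK cells, whereas Ezh2 did not pass the test (log2 fold change −0.23, adjusted p = 0.116, edgeR). The human samples were NK92MI, one human line of NK cells engineered to secrete IL-2, cultured with BIX-01294, an inhibitor of the EHMT2 methyltransferase, or with its solvent DMSO, 3 libraries each. The dose and time for the sequenced cultures are not given in the sources used here. NK92MI cells in the functional assays of the study received 0.25 µM for 5 days.

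SLAM receptors sit on the surface of blood cells and bind other SLAM receptors, mostly of their own kind, on neighbouring cells. CD244 (2B4) is the exception, since its ligand is CD48, a SLAM relative held in the membrane by a lipid anchor and lacking a cytoplasmic tail. The tails of CD244, SLAMF6 (Ly108 in mouse, NTB-A in human) and SLAMF7 (CRACC, CS1) carry tyrosine motifs that recruit SAP-type adaptors. SAP brings in the kinase FYN and turns the receptors towards activation, and without SAP the same tails can recruit inhibitory phosphatases. In NK cells these receptors govern the killing of blood-derived target cells, and SLAMF7 signals there through EAT-2, the product of Sh2d1b genes, rather than through SAP.

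The 3 receptors and CD48 are neighbours on chromosome 1 in both species. In mouse (GRCm38) Cd244 lay on the plus strand from 171559193 to 171609746, Slamf7 on the minus strand from 171632403 to 171653035, Cd48 on the plus strand from 171682009 to 171705258, and Slamf6 on the plus strand from 171917515 to 171953170. In human (GRCh38) the order was reversed, with SLAMF6 on the minus strand from 160485030 to 160523262, CD48 on the minus strand from 160678746 to 160711831, SLAMF7 on the plus strand from 160739057 to 160754821, and CD244 on the minus strand from 160830160 to 160862887. The gene for SAP is on chromosome X, at 42502453 to 42529330 in mouse and 124227868 to 124373197 in human, on the plus strand in both. RefSeq promoter windows (GRCh38.p14, 250 bases before to 50 bases after the annotated start) were found for 4 of the 5 human genes, SLAMF7 being the one not matched. The upstream 250 bases of CD244 and SLAMF6 are shown, because these neighbours in the same gene cluster moved in opposite directions in NK92MI cells. Capitals mark the one match to the core letters used for 3 factor families that act in NK cells. Those letters were AGGTGT for T-box factors, TGTGGT for RUNX and AGGAAG for ETS, each searched on both strands, and no match overlapped another.
CD244, chr1:160862888-160863137, minus strand: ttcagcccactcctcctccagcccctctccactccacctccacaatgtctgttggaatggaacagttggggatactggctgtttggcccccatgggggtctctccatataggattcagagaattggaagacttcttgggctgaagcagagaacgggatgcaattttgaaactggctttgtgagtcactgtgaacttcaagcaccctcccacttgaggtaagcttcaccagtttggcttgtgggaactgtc
SLAMF6, chr1:160523256-160523505, minus strand: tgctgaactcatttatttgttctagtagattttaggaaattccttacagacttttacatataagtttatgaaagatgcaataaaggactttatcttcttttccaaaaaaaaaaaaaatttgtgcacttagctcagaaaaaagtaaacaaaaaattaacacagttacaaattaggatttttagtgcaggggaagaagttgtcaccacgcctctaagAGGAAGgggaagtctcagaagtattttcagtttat
The ETS letters begin at −35 from the start of SLAMF6, and 33.6% of 35116 promoter windows hold them. The T-box letters are in 11.4% and the RUNX letters in 13.1% of those windows. The windows of CD244, CD48 and SH2D1A hold none of the 3, which says only that these letters are not in these windows. The SH2D1A window lies at 124346313 to 124346612, inside the span given above and not at its start, since the 2 annotations place the start differently.

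Cd244 and Cd48, the receptor and its ligand, rose in KO NK cells, by 1.37-fold and 1.48-fold on TMM scaling. Their sign turned when libraries were scaled instead to NK cell genes, which were themselves higher in KO libraries. These NK cell genes include Prf1 and Il2rb, whose mRNA the paper reports as raised in KO NK cells by RT-qPCR. That scaling moved the median of all tested genes to −0.82 on the log2 scale. Sh2d1a and Slamf7 had positive fold changes and Slamf6 a negative one, and none of these passed the test. In all, 2 of the 5 genes were called (edgeR's quasi-likelihood test, adjusted p under 0.05 over 13189 genes), both higher, against 11.9% of all genes tested called in either direction, 4.44% higher and 7.43% lower. Every KO library lay above every WT library for Cd244, Cd48 and Sh2d1a, and below for Slamf6, so the groups did not overlap for 4 of 5, against 38.5% of all genes (19.1% above and 19.3% below). With 3 libraries against 3 the smallest two-sided exact permutation p is 0.1. Nothing in the labels says that the libraries of a group came from separate animals or cultures, so p-values measure the spread between these samples.

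Cd244, the CD48 receptor, was counted at 134, 153 and 139 CPM in WT and at 180, 205 and 200 CPM in KO NK cells. The highest WT library was below the lowest KO library. The group means were 142 ± 9.50 and 195 ± 12.9 CPM (SD, n = 3), a difference of 0.46 ± 0.09 on the log2 scale (log2 fold change ± standard error, SE; edgeR adjusted p = 0.0327). The call held in 2 of the 6 fits that left out one library. It was lost without WT replicate 1, WT replicate 3, KO replicate 2 or KO replicate 3, where the adjusted p rose to at most 0.14. In those fits the genes called over the whole table fell from 1565 to 99, 14, 0 and 0, in that order. The log2 fold change of Cd244 stayed between 0.42 and 0.51. By DESeq2 on all libraries the adjusted p of Cd244 was 4.95e-04, in a fit that called 3087 genes.

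Cd48 was counted at 169, 180 and 175 CPM in WT and at 300, 246 and 230 CPM in KO NK cells. The WT libraries were close together and KO replicate 1 stood highest. The means were 175 ± 5.55 and 259 ± 36.8 CPM (SD, n = 3), and the fitted log2 fold change was 0.56 ± 0.11 (SE; edgeR adjusted p = 0.0329), the largest of the 5 genes. This call was lost without each of the same 4 libraries as that of Cd244, in the fits where calls over the whole table also fell. Leaving out each library in turn gave log2 fold changes between 0.44 and 0.64 and adjusted p-values from 0.016, with WT replicate 2 removed, to 0.131, with KO replicate 3 removed. By DESeq2 on all libraries the adjusted p of Cd48 was 2.74e-04.

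Sh2d1a was counted at 22.6, 31.8 and 21.9 CPM in WT and at 34.1, 34.1 and 36.5 CPM in KO NK cells. WT replicate 2 was well above the other WT libraries and still below every KO library. The means were 25.4 ± 5.52 and 34.9 ± 1.38 CPM (SD, n = 3), and the log2 fold change of 0.46 (standard error 0.15) had an adjusted p of 0.0764 by edgeR. Without WT replicate 2 it was 0.65 with an adjusted p of 0.005, in a fit in which 26.3% of 13411 genes were called, and by DESeq2 on all libraries the adjusted p was 0.0369. Of the 50-base stretches of the Sh2d1a transcripts, 25.6% also occurred in transcripts of other genes, and its exons overlap those of Tenm1 on the other strand. Reads from such stretches cannot be assigned to Sh2d1a with certainty.

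Slamf7 was counted at 201, 234 and 186 CPM in WT and at 237, 284 and 229 CPM in KO NK cells. The groups overlapped narrowly, since WT replicate 2 was above KO replicate 3. The log2 fold change was 0.27, with a 95% interval from 0.03 to 0.51 and an adjusted p of 0.149 by edgeR. An antisense RNA with no row of its own, Gm37787, shares 7.14% of the 50-base stretches of Slamf7.

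Slamf6 was counted at 32.6, 37.5 and 38.8 CPM in WT and at 32.3, 29.9 and 25.8 CPM in KO NK cells. WT replicate 1 and KO replicate 1 differed by less than 1 CPM, and the other libraries were further apart. Its log2 fold change was −0.31, with a 95% interval from −0.54 to −0.08 and an adjusted p of 0.107 by edgeR. Slamf6 therefore had the opposite sign to the other 4 genes in these libraries, although its own change did not pass the test.

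**Figure D1:**
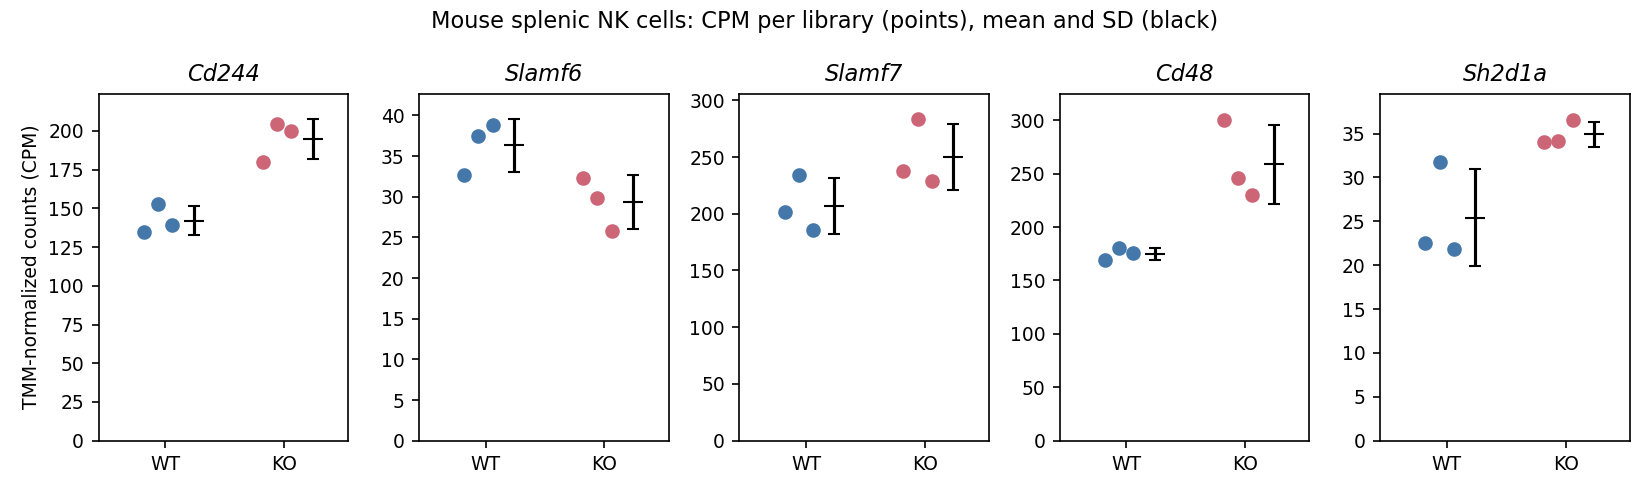
Normalized counts (CPM, vertical axes from 0) of the 5 genes in each WT and KO library of mouse splenic NK cells (points), with the group mean and SD in black (n = 3). On TMM scaling Cd244, Cd48 and Sh2d1a lie higher and Slamf6 lower in every KO library than in every WT library, and the groups overlap for Slamf7. The positive signs turn with scaling to NK cell genes, as does the sign of the median gene.

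Summed marker levels of several cell types moved between the groups of mouse libraries, in part with overlap. In bulk samples fewer cells of a type and less RNA per cell cannot be told apart. The summed level of 12 genes expressed throughout NK cells ranged from 5473 to 9368 CPM in WT and from 10461 to 12149 CPM in KO libraries. All 12 had positive fold changes, as did 51.5% of all genes tested. Of the 12, 5 were called higher, beside 4.44% of all genes tested. The 10 B cell markers summed to between 457 and 1385 CPM in WT and between 37.3 and 425 CPM in KO, the 10 macrophage and monocyte markers to between 2765 and 6875 and between 1673 and 2879, and the 6 neutrophil markers to between 224 and 1633 and between 57.1 and 250. No B cell or neutrophil marker was called. Of the macrophage and monocyte markers 5 were called lower and 1 higher, beside 7.43% and 4.44% of all genes tested. All 7 erythroid markers were called lower, beside 7.43% of all genes tested. The sum of 6 dendritic cell markers overlapped, between 999 and 1331 CPM in WT and between 1054 and 1344 CPM in KO. Gene by gene, 5 of these 6 had negative fold changes and 1 a positive one, with a median of −1.01 on the log2 scale. Of the 6, 2 were called lower and 0 higher. No marker on these lists was at 0 in all libraries. WT replicate 2 had the highest NK and the lowest macrophage sum of the WT group, as well as the smallest total count. B cells and macrophages are known to carry Cd48 too.

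The 12 NK genes are Ncr1, Klrb1c, Klrk1, Klre1, Klri2, Itga2, Il2rb, Eomes, Txk, Prf1, Gzma and Nkg7. The paper reports Prf1 and Il2rb mRNA as raised in KO NK cells by RT-qPCR. A change of these genes within NK cells would enter the scaling, and its part was not tested. Scaling the libraries to the 12 NK genes moved the median of all tested genes from 0.01 to −0.82 on the log2 scale. Cd244 then had a log2 fold change of −0.36 (adjusted p = 0.198), Cd48 −0.25 (adjusted p = 0.399), Sh2d1a −0.32 (adjusted p = 0.288) and Slamf7 −0.53 (adjusted p = 0.0668), and Slamf6 was called lower at −1.12 (adjusted p = 0.00527, edgeR throughout), as were 8507 of all genes tested. Since the scaling shifts all genes by about the same amount, distances from the median gene are nearly fixed by construction. They were 0.44 for Cd244, 0.55 for Cd48 and −0.32 for Slamf6 on TMM scaling. Per 1000 counts of the NK genes, Slamf6, Slamf7 and Sh2d1a were lower in every KO than in every WT library. The share of all genes with that order was not computed. Since 8507 of all genes tested were called lower with NK scaling, the order is not read as particular to these genes. Slamf6 had between 4.0 and 6.75 counts in WT and between 2.14 and 3.09 in KO, Slamf7 between 25.0 and 36.8 and between 19.0 and 23.3, and Sh2d1a between 3.39 and 4.12 and between 2.81 and 3.26. Cd244, between 16.3 and 24.6 and between 16.5 and 17.2, and Cd48, between 19.2 and 30.9 and between 19.0 and 28.7, overlapped. The part of library makeup in these differences was not tested.

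In NK92MI cells, SLAMF7 and CD244 rose with BIX-01294, by 1.56-fold and 1.24-fold, and SLAMF6 fell, to 0.84 of its DMSO level. CD48 and SH2D1A did not pass the test. These 3 calls of 5 stood against 36.9% of 12727 tested genes called in either direction, 18.4% higher and 18.4% lower, so a called gene was common in this comparison. The summed level of 12 NK cell genes lay between 4524 and 4943 CPM with DMSO and between 5155 and 6470 CPM with BIX-01294, with 6 of the 11 tested called higher and 3 lower, and its part in the values below was not tested. The groups did not overlap for the same 3 genes, and for 47.9% of all genes tested, 24.1% above and 23.9% below.

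SLAMF7, the most strongly counted of the receptors, was at 586, 596 and 595 CPM with DMSO and at 932, 895 and 949 CPM with BIX-01294. The DMSO libraries agreed within 10 CPM and all BIX-01294 libraries were far above them. The means were 592 ± 5.22 and 926 ± 27.8 CPM (SD, n = 3), a log2 fold change of 0.64 ± 0.06 (SE; edgeR adjusted p = 1.91e-06). It was called in all 6 fits that left out one library, with values from 0.63 to 0.67.

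CD244 was counted at 169, 181 and 172 CPM with DMSO and at 214, 216 and 218 CPM with BIX-01294. The treated libraries agreed closely and none reached down to the controls. The means were 174 ± 6.48 and 216 ± 2.19 CPM (SD, n = 3), and the log2 fold change of 0.31 ± 0.06 (SE; edgeR adjusted p = 0.0012) was called with each library left out in turn.

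SLAMF6 was counted at 62.5, 57.4 and 59.3 CPM with DMSO and at 48.8, 52.1 and 50.1 CPM with BIX-01294. All treated libraries were below all controls. The means were 59.7 ± 2.58 and 50.3 ± 1.67 CPM (SD, n = 3), a log2 fold change of −0.25 ± 0.07 (SE; edgeR adjusted p = 0.016). The call was lost without one DMSO library, the first by column order (adjusted p = 0.0875), and without BIX-01294 replicate 1 (adjusted p = 0.0915).

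CD48 was counted at 91.3, 105 and 97.4 CPM with DMSO and at 111, 89.9 and 111 CPM with BIX-01294. The groups overlapped, because BIX-01294 replicate 2 was below every DMSO library. The log2 fold change was 0.09 with a 95% interval from −0.08 to 0.26 (adjusted p = 0.433, edgeR). Without BIX-01294 replicate 2 it was 0.19 and was called (adjusted p = 0.0364). CD48 shares 26.1% of its 50-base stretches with a long noncoding RNA on the other strand (ENSG00000228863), which has no row of its own. Because the kit does not mark strand, the count of CD48 is uncertain by the reads of that RNA.

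SH2D1A, counted at 698, 686 and 753 CPM with DMSO and at 733, 705 and 693 CPM with BIX-01294, showed no difference larger than the spread between libraries. The means were 713 ± 35.7 and 710 ± 20.4 CPM (SD, n = 3), and the 95% interval of the log2 fold change, from −0.12 to 0.11, includes 0 (adjusted p = 0.962, edgeR). Of the 50-base stretches of SH2D1A, 0.778% also occurred in TEX13D, whose exons overlap those of SH2D1A on the same strand. EHMT2 itself went from 57.7 ± 3.66 to 38.5 ± 2.39 CPM (SD, n = 3; log2 fold change −0.58, adjusted p = 1.01e-04, edgeR).

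**Figure D2:**
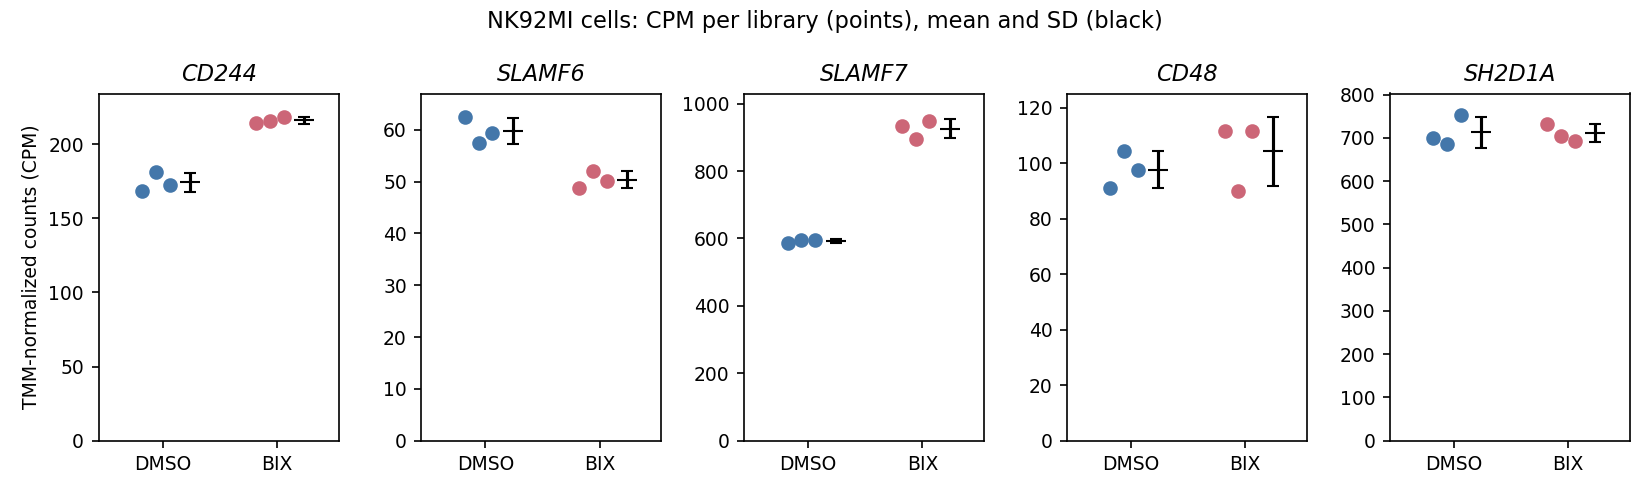
Normalized counts (CPM, vertical axes from 0) of the 5 genes in each DMSO and BIX-01294 (BIX) library of NK92MI cells (points), with the group mean and SD in black (n = 3). SLAMF7 and CD244 lie higher and SLAMF6 lower in every treated library, while CD48 and SH2D1A overlap between the groups.

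The ratio of 2 counts within a library does not depend on how libraries are scaled, and Slamf6 was taken as the reference after its opposite sign had been seen. In mouse, counts of Cd244 per count of Slamf6 ranged from 3.58 to 4.12 in WT and from 5.58 to 7.74 in KO libraries. For Cd48 the ratio ranged from 4.51 to 5.18 and from 8.24 to 9.28, for Slamf7 from 4.78 to 6.25 and from 7.34 to 9.49, and for Sh2d1a from 0.564 to 0.847 and from 1.05 to 1.41. All 4 ratios were higher in every KO than in every WT library, a direction that the choice of Slamf6 favoured, so the ratios are given as a description. In NK92MI cells, CD244 per SLAMF6 ranged from 2.7 to 3.16 with DMSO and from 4.14 to 4.39 with BIX-01294, SLAMF7 per SLAMF6 from 9.38 to 10.4 and from 17.2 to 19.1, and SH2D1A per SLAMF6 from 11.2 to 12.7 and from 13.5 to 15.0. CD48 per SLAMF6 overlapped, from 1.46 to 1.82 and from 1.73 to 2.29. Such a ratio does not show which of the pair changed.

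Levels of different genes were compared per length, as CPM per kilobase of exon (RPKM) with exon lengths from the annotation. In WT NK cells the order was Cd48 at 147 ± 4.67, Slamf7 at 45.2 ± 5.42, Cd244 at 29.1 ± 1.95, Sh2d1a at 4.61 ± 1.0 and Slamf6 at 3.35 ± 0.30 RPKM (SD, n = 3). The order in KO NK cells was the same. In NK92MI cells with DMSO it was SH2D1A at 143 ± 7.17, SLAMF7 at 123 ± 1.08, CD244 at 60.3 ± 2.24, CD48 at 30.0 ± 2.05 and SLAMF6 at 21.8 ± 0.94 RPKM (SD, n = 3). With BIX-01294, SLAMF7 at 192 ± 5.76 RPKM stood above SH2D1A at 143 ± 4.10 RPKM. The ranges of neighbours in these orders did not overlap in any of the 4 groups. Thus Cd48 was the highest of the 5 in mouse splenic NK cells and the ligand was next to lowest in the cell line. SAP was next to lowest in mouse and highest in NK92MI cells with DMSO. The species were not tested against each other, and lengths of annotated exons need not be those of the transcripts in these cells. T cells also make SAP, but NK92MI is a line of NK cells, so the T cell markers that follow are given only as a description. In NK92MI libraries CD3E was at 493 CPM with DMSO and 552 CPM with BIX-01294 beside NCAM1, the NK marker CD56, at 343 and 348 CPM, and 5 of the 9 T cell markers, CD3D, CD3G, CD8A, CD8B and CD5, have no row.

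**Figure D3:**
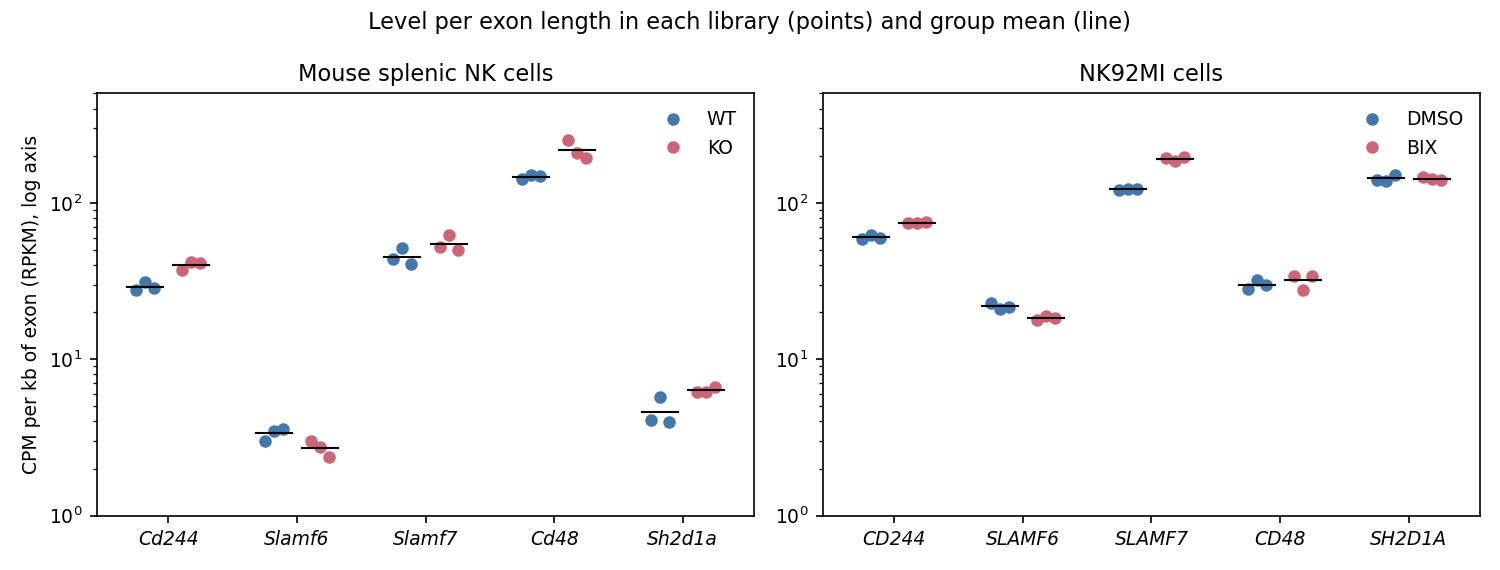
Level per exon length (RPKM, log axis) of the 5 genes in each library (points) with the group mean (line), mouse at the left and NK92MI at the right. Cd48 is highest in mouse, SH2D1A highest with DMSO and SLAMF7 highest with BIX.

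Other receptors of the family were measured beside these. In mouse, Ly9 (SLAMF3), a self-binding receptor whose gene lies within the span of Cd244 on the other strand with no exon in common, was counted at 190, 216 and 173 CPM in WT and at 263, 303 and 273 CPM in KO NK cells. It rose by 0.54 on the log2 scale (standard error 0.11, adjusted p = 0.0338, edgeR) and turned to −0.27 (adjusted p = 0.32) with NK scaling. The call of Ly9 held in only 2 of the fits that left out one library, with edgeR adjusted p up to 0.14. Slamf9 fell, from 24.5, 15.2 and 16.1 CPM in WT to 9.79, 11.4 and 5.95 CPM in KO, with a log2 fold change of −1.04 (adjusted p = 0.0491, edgeR). The macrophage and monocyte marker sum was 2765 to 6875 CPM in WT and 1673 to 2879 CPM in KO. The part of library makeup in the Slamf9 values was not tested. Slamf1 (log2 fold change −0.56, adjusted p = 0.116), Slamf8 (−0.57, adjusted p = 0.14) and Cd84 (0.12, adjusted p = 0.427) did not pass the test. In human, SLAMF1, another self-binding receptor, was at 4.89, 3.57 and 3.55 CPM with DMSO and at 10.5, 11.1 and 13.3 CPM with BIX-01294, and rose by 1.54 on the log2 scale (standard error 0.17, adjusted p = 1.18e-05, edgeR). LY9 rose from 2.10, 2.81 and 2.19 CPM to 5.60, 4.35 and 5.79 CPM (log2 fold change 1.15, adjusted p = 7.68e-04, edgeR). SLAMF8 fell from 2.04, 2.86 and 3.20 CPM to 0.49, 0.94 and 0.41 CPM (log2 fold change −2.12, adjusted p = 4.10e-04, edgeR). These 3 were low beside SLAMF7 and CD244, CD84 had too few counts to be tested, and SLAMF9 has no row.

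Among the other SAP-type adaptors, Sh2d1b2, which encodes ERT in mouse, rose by 2.48 on the log2 scale (standard error 0.42, adjusted p = 0.0279, edgeR). It was low in WT NK cells, at 1.24, 1.94 and 0.97 CPM, and between 4.32 and 11.6 CPM in KO NK cells, with every KO library above every WT library. Only 2 of the fits that left out one library, with edgeR adjusted p up to 0.131, kept the call of Sh2d1b2. Its neighbour Sh2d1b1, which encodes EAT-2, had a log2 fold change of −0.08 (adjusted p = 0.604) and a mean of 44.3 ± 3.72 CPM (SD, n = 3) in WT. The 2 genes share 13.4% and 13.1% of their 50-base stretches, so a part of their reads cannot be told apart. The human gene SH2D1B was at 43.5 ± 3.23 CPM with DMSO and had a log2 fold change of 0.01 (adjusted p = 0.932, edgeR). CD2, a relative that binds CD48 in mouse and CD58 in human, did not pass the test in either species (Cd2 0.53, adjusted p = 0.082; CD2 0.14, adjusted p = 0.598), whereas CD58 rose by 0.25 (adjusted p = 0.0373, edgeR).

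**Figure D4:**
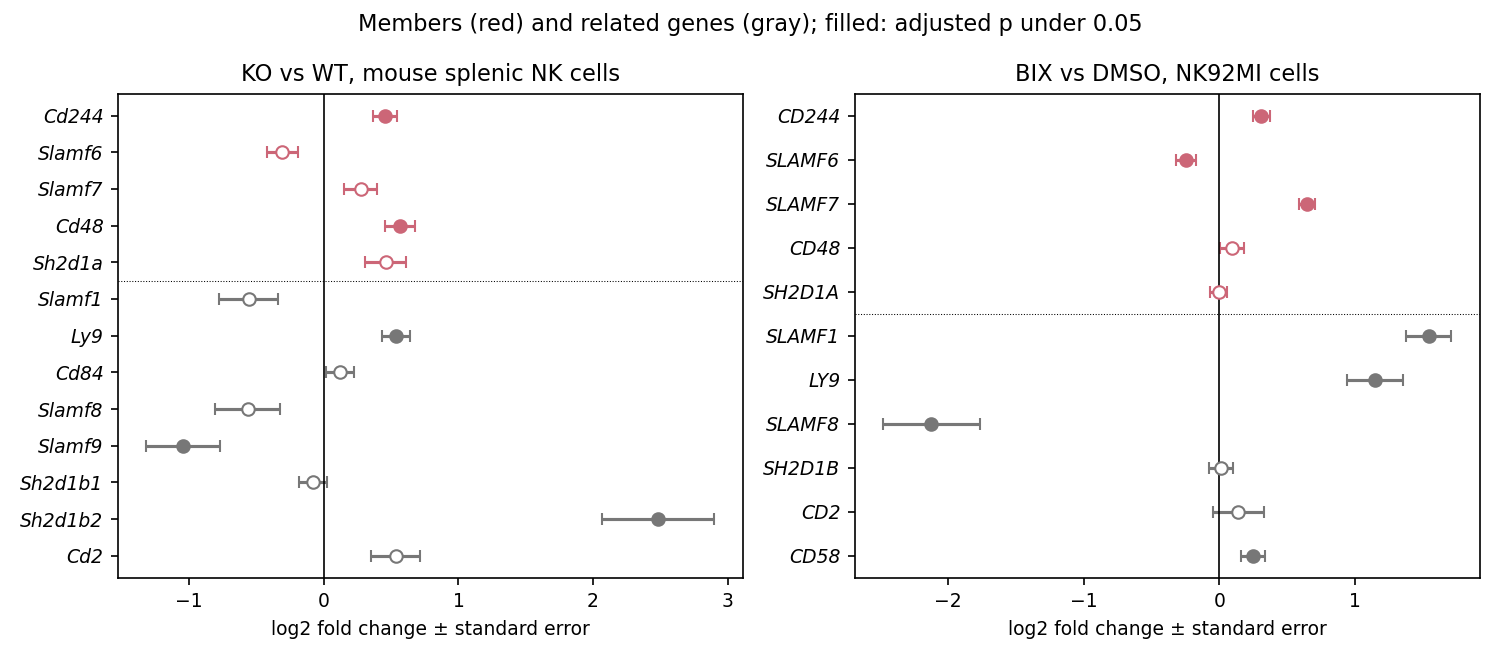
Log2 fold changes with standard errors (TMM scaling) of the 5 genes (red, above the dotted line) and of related receptors, adaptors and CD2 ligands (gray), mouse at the left and NK92MI at the right; filled points have an adjusted p under 0.05. Slamf6 and SLAMF6 lie left of 0, Sh2d1b2 has the largest mouse value and SLAMF8 the lowest human one. With NK scaling of the mouse libraries the signs of Cd244, Slamf7, Cd48, Sh2d1a and Ly9 turn, as does that of the median gene.

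Along the chromosome, the SLAM cluster spans 394.0 kb in mouse and 377.9 kb in human. Of its 8 tested mouse genes, the 4 at the Cd244 end, namely Cd244, Ly9, Slamf7 and Cd48, had log2 fold changes between 0.27 and 0.56 on TMM scaling. With NK scaling these 4 were negative, as was the median of all tested genes. Slamf6 at the far end had −0.31 on TMM scaling. Between these 4 and Slamf6 lay Slamf1, Cd84 and Gm10521 (0.23, adjusted p = 0.575, edgeR), none of which passed the test. Of the 6 tested human genes, SLAMF6 at one end fell and CD244 at the other rose, with SLAMF1, SLAMF7 and LY9 called higher between them and CD48, also between them, not called. The untested human genes with a row were CD84 and the pseudogenes SETP9 and PPIAP37, each below 1 CPM on average.

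**Figure D5:**
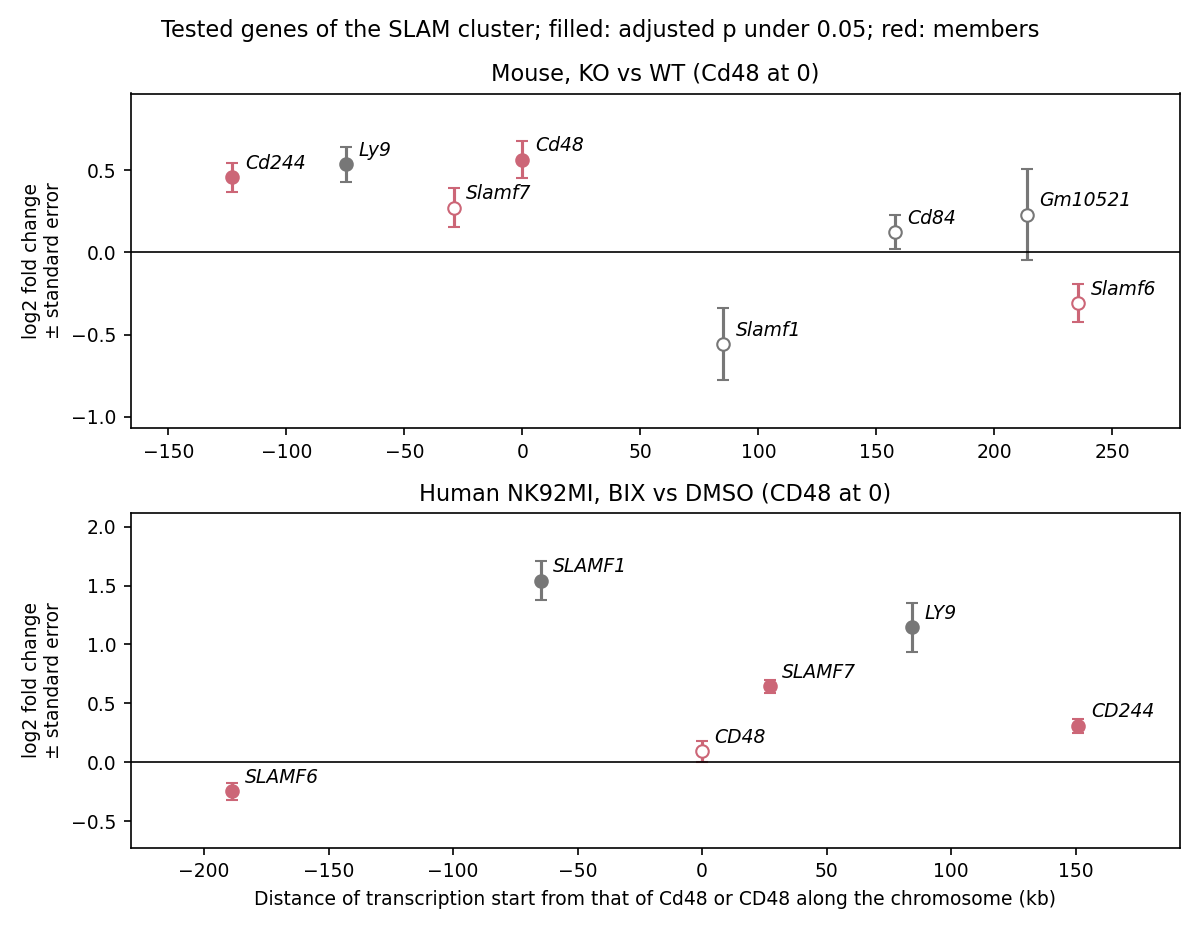
Log2 fold change (± standard error, TMM scaling) of each tested gene of the SLAM cluster against the distance of its transcription start from that of Cd48 or CD48 (kb); Cd244, Slamf7, Cd48 and Slamf6 and their human counterparts are red, and filled points have an adjusted p under 0.05. Slamf6 and SLAMF6, at the end away from Cd244 and CD244, are below 0 in both species. In mouse the positive values of Cd244, Ly9, Slamf7 and Cd48 turn with NK scaling, as does that of the median gene.

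Signalling genes downstream of SLAM receptors were read from a list of 32 genes that also holds the receptors and adaptors above. In mouse all 32 were tested, 5 were called higher and 4 lower, beside 4.44% and 7.43% of all genes tested, and the median log2 fold change was 0.06 beside 0.01 for all genes. The kinase Lck rose by 0.73 (adjusted p = 0.0484), as did the inhibitory adaptor Dok2 by 0.93 (adjusted p = 0.0327) and the ubiquitin ligase Cblb by 0.55 (adjusted p = 0.0454). The kinases Lyn (−0.67, adjusted p = 0.0345), known from B cells and myeloid cells, and Fgr (−0.71, adjusted p = 0.0484), known from myeloid cells, fell, and so did the exchange factor Vav2 (−0.83, adjusted p = 0.0456, edgeR throughout). Fyn, the kinase that SAP binds, had 0.37 and was not called. With NK scaling 1 gene of the list was called higher, Sh2d1b2 (1.69, adjusted p = 0.0041, edgeR), and 20 were called lower, beside 8507 of all 13189 genes called lower.

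In NK92MI cells 28 of the 32 could be tested, 4 were called higher and 14 lower, beside 18.4% of all genes tested in each direction, and the median was −0.19 beside −0.01 for all genes. All 6 kinases on the list fell, FYN most at −0.66 (284 ± 11.6 to 179 ± 8.96 CPM, SD, n = 3; adjusted p = 4.37e-06) and LCK by 0.32 on the log2 scale (adjusted p = 0.00381). CSK, which restrains these kinases, had −0.55 (adjusted p = 6.90e-05). Among the proteins that carry the signal onward, SH3BP2 (−0.80, adjusted p = 7.06e-07), LAT (−0.73), PLCG2 (−0.53), VAV1 (−0.40) and PLCG1 (−0.38) fell and GRB2 (0.17, adjusted p = 0.0444) rose. Of the inhibitory group, the phosphatases PTPN11 (−0.35), which encodes SHP-2, and INPP5D (−0.23), which encodes SHIP-1, fell (edgeR throughout).

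For the gene with the smallest adjusted p in each species, the most similar genes over the 6 libraries were looked up among genes with a mean of at least 10 CPM. Those closest to Cd244 were Ubash3a (Pearson r of log2 CPM 0.999), Raph1 (0.999) and Irf2bp1 (0.998), out of 9131 genes. Those closest to SLAMF7 were PELI1, CXCR4 and SLC35A2, each at 0.999 or above, out of 8555. The 6 libraries fall into 2 groups in each species, and the values are given as a description.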

How the data were processed

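RNA-seq counts of 6 mouse and 6 human libraries were used. The authors trimmed reads with fastp 0.23.4, aligned them with STAR 2.7.11b (2 mismatches) to GRCm38 or GRCh38, counted them with HTSeq 2.0.3, and deposited raw counts per gene without normalization. The kit does not mark strand. Totals were 25891680 to 37438868 (mouse) and 16579469 to 17165446 (human), and intervals cover no bias of counting. Each species was fitted over its whole table in R 4.3.3 with edgeR 4.0.16 (quasi-likelihood test, TMM, filterByExpr, two-sided, Benjamini-Hochberg), after tests on simulated data. Intervals of 95% are normal intervals from the standard error. Positions, exon lengths and shared 50-base stretches come from GENCODE annotations of the same builds, not shown to be the authors' release; mouse Cd244 is Cd244a there. The human control columns name only the group.

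The 5 genes and all gene lists were chosen with earlier results of these data known. Genes named are these 5, called genes of the signalling list, genes of the SLAM cluster, and the 3 genes most correlated with the member of smallest adjusted p. Others on the list are named as uncalled relatives, and markers or overlapping genes where their level, place or use in scaling is described. Alternatives were DESeq2 1.42.0, limma-voom (limma 3.58.1), other scalings and filters, a replicate block, other thresholds and leaving out each library. WT and KO replicates of the same number had correlated deviations of 0.33, 0.45 and −0.20, so the numbers were not taken to pair samples. H3K9me2 profiles were not analysed here.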

Additional observations from a re-analysis of the deposited data

How the results depend on the processing

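Of the mouse calls, 2 of the 5 genes, 1565 of all genes and 9 of the signalling list, the counts moved with the test and scaling. With the thresholds of the study (adjusted p under 0.01 and an absolute log2 fold change over 0.5), and with adjusted p under 0.01 alone, edgeR called 0 in each. Unadjusted p under 0.05 gave 4, 4719 and 19, and DESeq2 at the study's thresholds gave 1 (Cd48), 1495 and 10, both settings chosen after seeing the data. DESeq2 at 0.05 called 3087 genes and 14 of the list. The replicate block called 4, 3222 and 16. Scaling to NK genes called 1, 8542 (35 higher and 8507 lower, beside 585 and 980) and 21, and reversed Cd244 (−0.36), Slamf7 (−0.53), Cd48 (−0.25), Sh2d1a (−0.32) and Ly9 (−0.27). Leaving out one mouse library gave 0 to 3, 0 to 3530 and 0 to 15 calls. At an unadjusted p under 0.05 in edgeR these fits gave 2 to 4 of the 5 genes, beside 3208 to 5494 of all genes. All genes called fell to 99 without WT replicate 1, 14 without WT replicate 3 and 0 without KO replicate 2 or 3, and rose to 3530 without WT replicate 2. The cause was not tested.

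Of the human calls, 3, 4692 and 18, the study's thresholds left 1, 1485 and 8 in edgeR and 1, 1484 and 8 in DESeq2, and adjusted p under 0.01 left 3010 genes. Leaving out one library gave 2 to 4, 3491 to 5021 and 13 to 20. SH2D1A, close to 0, turned sign with DESeq2 size factors (0.0011), DESeq2 (0.0011), no filter (4.45e-04) and with one library left out, where it ranged from −0.0323 to 0.036. No paired analysis was possible for NK92MI because the control columns carry no link to numbered samples. In mouse, the block moved Slamf7 (adjusted p = 0.0323) and Sh2d1a (adjusted p = 0.0448) past the threshold.

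Over the alternative fits of the 5 mouse genes, 53 values kept direction and side of the threshold, 4 reversed, 8 were no longer called and 5 were newly called. For the 5 human genes these numbers were 51, 6, 2 and 1. An effect of depth was not tested, and CD84, with too few counts, was not tested in human.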
